A study of Bos taurus with 15 samples.

Results

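The comparison set mammary tissue taken 72 h after a single injection of dexamethasone (DEX) against tissue taken 12 h after it, in the same 3 cows. The labels give each library's cow and time point, and the libraries of cows 2, 3 and 4 at these times were chosen, which gave 3 at 12 h and 3 at 72 h, 6 of the 15 libraries of the series. The animals were non-pregnant Holstein cows in their second lactation, and every one of the 4 received 40 mg of DEX by intramuscular injection and a prophylactic course of ampicillin. No cow went without DEX, so the only untreated tissue is the biopsy taken from each cow just before the injection (0 h). Cow 1 contributed libraries at 0, 12 and 24 h. The study's text describes 1 animal, without its number, that fell ill after DEX and left the experiment. Cow 1 is the only animal without a 72 h library here, so it may be that animal, and its 24 h values may be those of a cow falling ill.

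Needle biopsies were taken from another udder gland, or QTR, at every time point, in the same order in all cows. The 0 h tissue came from the left rear QTR, the 12 h tissue from the left front QTR, and the 72 h tissue from the right rear QTR, which left the remaining gland for 24 h. DEX was given in the evening, so the 12 h biopsies fell in the morning and those at 0, 24 and 72 h in the evening. Time after DEX, the gland sampled and, for 12 h against the others, the time of day therefore changed together in all cows and cannot be told apart.

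DEX is a synthetic glucocorticoid (GC). GC bind an intracellular receptor that enters the nucleus and raises the transcription of some genes while lowering that of others, and the response fades as the hormone is cleared. In the lactating mammary gland GC act together with prolactin to keep milk protein genes transcribed, whereas a single high dose in dairy cows is known to lower milk yield for some days. The interval from 12 h to 72 h covers the later course of the response.

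RNA was measured with QuantSeq, which reads the 3′ end of each transcript, and the values are normalized counts, that is, CPM (reads scaled to a common library total) divided by a factor for each library. The libraries held 4526974, 4977307 and 5238539 reads at 12 h in cows 2, 3 and 4, and 2360591, 5685741 and 3740033 reads at 72 h. A gene with no read could still have had up to 3 reads, which is 1.22 normalized counts in the shallowest of these libraries (72 h, cow 2) and 0.464 in the deepest (72 h, cow 3), a limit that covers counting error only. Genes are given by Ensembl identifier, because 0 of the identifiers could be matched to a gene symbol with the annotation used here. For the same reason the labelled tissue could not be checked against marker genes, and no gene is assigned a function.

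From 12 h to 72 h, 192 genes rose and 298 fell, of 13525 tested (limma, Benjamini-Hochberg adjusted p under 0.05). These 490 genes are 3.62% of those tested, with 1.42% higher and 2.2% lower. The median change was 1.28 on the log2 scale for the genes that rose (interquartile range 0.96 to 1.69) and -1.42 for those that fell (-1.95 to -1.02), while the median over all genes tested was 0. Falls were more often large, with 66 of 298 reaching 4-fold and 19 reaching 8-fold, against 22 and 2 of the 192 rises. These size counts are for the normalized counts only, and the difference between falls and rises was not tested. In bulk tissue, fewer cells of a type and less RNA per cell cannot be told apart, and this holds for every change described.

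All 490 called genes changed in one direction in cows 2, 3 and 4, and the 3 values at 72 h did not overlap the 3 at 12 h in 190 of the rises and in all 298 falls. Over all genes tested 16.4% did not overlap, but the called genes were selected on these same values, so their counts are a description only. The median rise was 1.14, 1.38 and 1.26 on the log2 scale in cows 2, 3 and 4, and the median fall was -1.29, -1.40 and -1.50. The smallest change that passed the test was 0.51 on the log2 scale, and 1893 genes had an unadjusted p under 0.05.

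**Figure D1:**
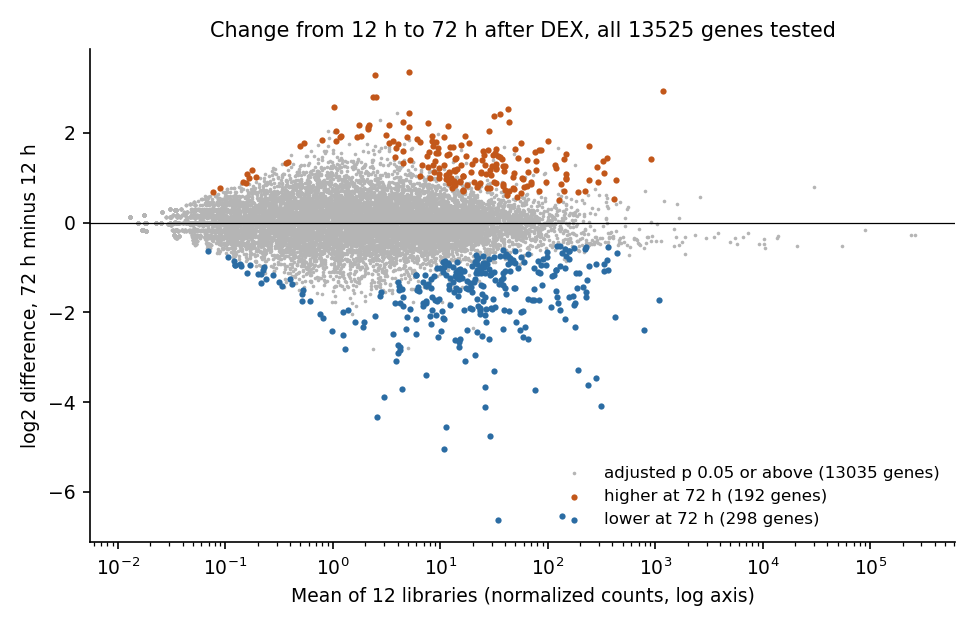
Each point is 1 of the 13525 genes tested; the x axis is its mean normalized count over the 12 libraries of cows 2 to 4 (log axis) and the y axis its log2 difference, 72 h minus 12 h. The 192 genes higher at 72 h (orange) reach 3.37 and the 298 lower (blue) reach -6.62, and grey points did not pass the test.

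The split between rises and falls depended on how the libraries were scaled. The factors by which CPM were divided were higher at 72 h (1.04, 1.14 and 1.28 in cows 2, 3 and 4) than at 12 h (1.00, 0.979 and 0.953). With CPM and no such factor, the median log2 difference went from 0 to 0.13 over all genes and from -0.04 to 0.19 over genes with a mean of at least 10. By this scaling 335 genes were higher and 188 lower, so that rises were 64.1% of the calls in place of 39.2%. With library totals that left out the 20 most abundant genes, 262 were higher and 239 lower (52.3% rises). Leaving out 1 cow lowered the counts to 67 higher and 132 lower without cow 2, 49 and 131 without cow 3 (27.2% rises), and 77 and 141 without cow 4. A fit of the 12 h and 72 h libraries alone with cow as a fixed term called 292 genes higher and 412 lower. With no term for cow the counts were 184 and 290, so the main model was close to an unpaired one.

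**Figure D2:**
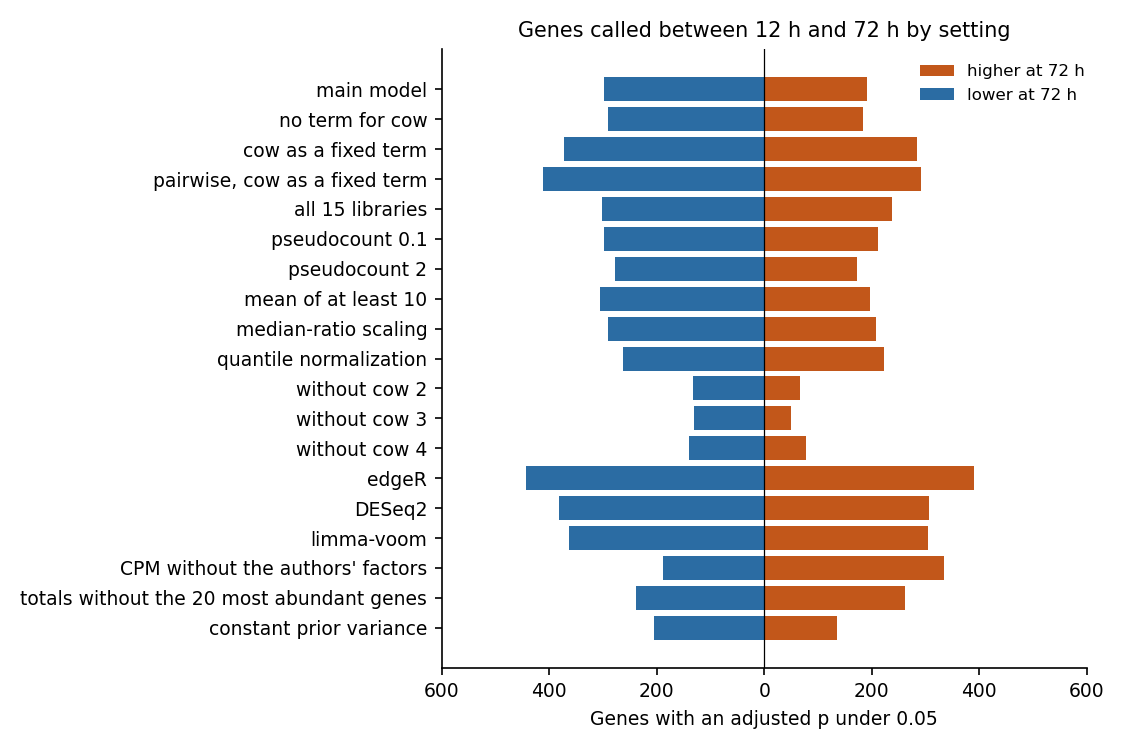
Bars give the number of genes with an adjusted p under 0.05 in the main model and 18 alternatives, those higher at 72 h to the right and those lower to the left. Falls outnumber rises except with CPM (335 rises, 188 falls) and with totals that leave out the 20 most abundant genes (262 rises, 239 falls), and the counts are lowest when 1 cow is left out.

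Among called genes with a mean normalized count of 4 or more, the largest fall in the main model was that of ENSBTAG00000009870. At 12 h its normalized count was 35.2, 224 and 95.6 in cows 2, 3 and 4, from 160, 1093 and 477 reads. At 72 h it was 0.408, 0.464 and 0.418, from 1, 3 and 2 reads. All 3 values at 72 h were therefore at the level of a few reads, and at 12 h cow 3 was the highest and cow 2 the lowest. The change was -6.62 ± 0.48 on the log2 scale (SE, n = 3 cows, limma adjusted p = 2.87e-07), and was -5.30, -7.86 and -6.71 in the single cows. It was -7.29 when cow 2 was left out and -6.00 when cow 3 was. With reads pooled over cows the 12 h level was 274 times the 72 h level, with a 95% exact interval of 126 to 748. Such intervals hold for counting error alone and leave out the spread between cows, and PCR copies of 1 molecule are counted as separate reads. At 24 h it was 11.01, 24.3 and 18.6, between the other times, and at 0 h it was 0, 0.301 and 0, where the reads were 0, 1 and 0. Cow 1, which took no part in the test, had 0 at 0 h, 86.5 at 12 h and 15.2 at 24 h, the same order as in the other cows.

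ENSBTAG00000009468 fell nearly as far but on another schedule. Its normalized count was 137, 446 and 328 at 12 h in cows 2, 3 and 4, and 2.85, 4.33 and 1.05 at 72 h, from 7, 28 and 5 reads. The mean went from 304 ± 155 to 2.74 ± 1.65 (SD, n = 3), a change of -6.54 ± 0.42 on the log2 scale (SE, limma adjusted p = 6.26e-08). Without cow 2 it was -7.13, and without cow 4 -5.95. In 2 alternatives it was the larger fall. Without cow 3 it was -6.55, against -6.00 for ENSBTAG00000009870, and with a pseudocount of 2 it was -5.92 against -5.27. At 24 h the normalized count of ENSBTAG00000009468 was 168, 187 and 331, within the range at 12 h. At 0 h it was 8.78, 10.2 and 19.1, so that each cow was lower at 72 h than before DEX. In cow 1 it was 5.88 at 0 h, 286 at 12 h and 154 at 24 h. This gene was still high at 24 h in all 4 cows, whereas ENSBTAG00000009870 had by then dropped to between 11.01 and 24.3.

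Among the rises with such a mean, ENSBTAG00000017328 changed most in the main model. At 12 h it was at 0.441, 0.410 and 0.200 normalized counts in cows 2, 3 and 4, from 2, 2 and 1 reads, and at 72 h it was at 7.34, 10.5 and 7.11, from 18, 68 and 34 reads. The gene was near the limit of detection at 12 h in each cow and clearly above it at 72 h. The change was 3.37 ± 0.51 on the log2 scale (SE, n = 3 cows, limma adjusted p = 5.73e-04). With a pseudocount of 2 the change was 2.12, below the 2.94 of ENSBTAG00000020527. With reads pooled over cows the ratio of 72 h to 12 h was 25.2, with a 95% exact interval of 10.5 to 79.1 for counting error only. At 24 h it was 0, 0.640 and 1.89, so it had not returned in any cow, and at 0 h it was 16.7, 8.12 and 7.53. Cow 1 had 7.67 at 0 h, 0 at 12 h and 0.670 at 24 h.

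ENSBTAG00000020527 was the most abundant gene that rose and, at a mean of 4 or more, the second in size of change in the main model. Its normalized count was 307, 237 and 204 at 12 h in cows 2, 3 and 4, and 2236, 2736 and 1112 at 72 h. The mean went from 249 ± 52.7 to 2028 ± 832 (SD, n = 3), a change of 2.94 ± 0.30 on the log2 scale (SE, limma adjusted p = 8.79e-06). The lowest value at 72 h, in cow 4, was more than 3 times the highest at 12 h. At 24 h it was 1164, 581 and 597, between the values at 12 h and 72 h in each cow, and at 0 h it was 1618, 2039 and 1436. In cow 1 it was 1479 at 0 h, 241 at 12 h and 404 at 24 h. Each of these 4 genes was called in every alternative in which it was tested.

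**Figure D3:**
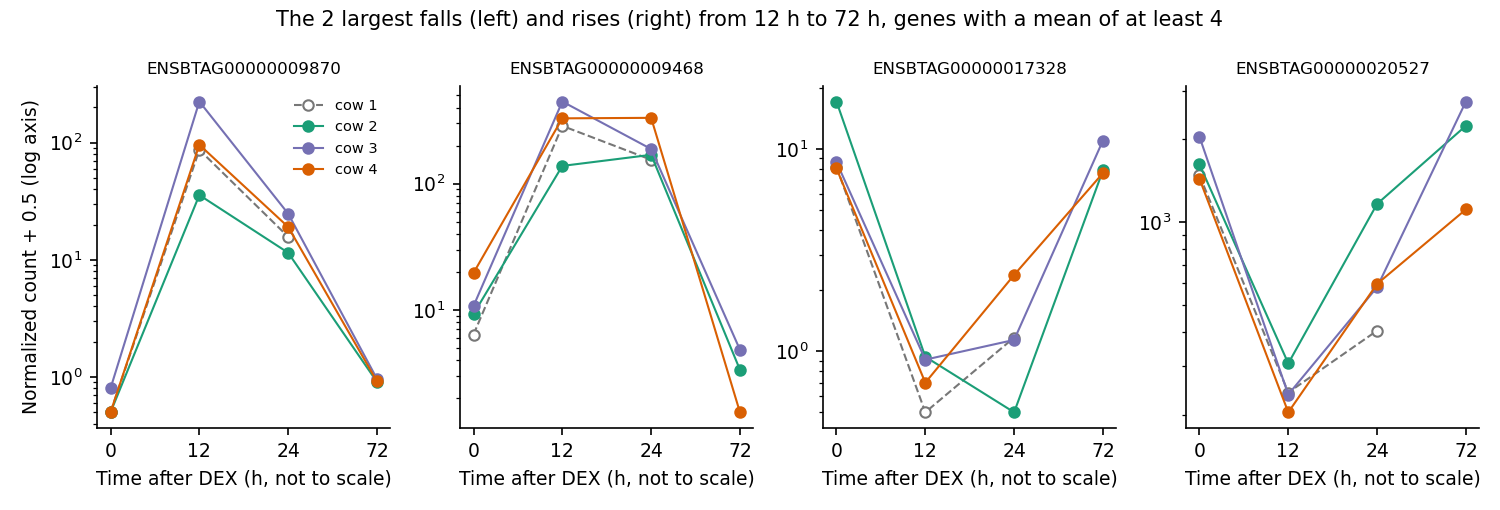
Normalized count plus 0.5 (log axis) by time after DEX (h, not to scale) for the 2 largest falls and 2 largest rises from 12 h to 72 h among called genes with a mean of 4 or more; each line is a cow, and the dashed line with open points is cow 1, which was not in the test. In every cow the fallers are high at 12 h and the risers low, and at 72 h all 3 cows have left the 12 h level.

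The same rule gave 12 falls and 12 rises, the largest among called genes whose mean normalized count was 4 or more. The 12 falls ran from -6.62 to -3.47 on the log2 scale, with adjusted p from 6.89e-09 to 3.34e-04 in limma. Their means were 11.3 to 634 normalized counts at 12 h and 0.43 to 48.2 at 72 h, and for 8 of the 12 the mean at 72 h was under 5. The 12 rises ran from 2.04 to 3.37, with means of 0.35 to 249 at 12 h and 6.46 to 2028 at 72 h. None of the 24 genes had overlapping values between the times, beside 16.4% of all genes tested and 32.2% of those with a mean of at least 10 that did not overlap. The 24 were picked on these same values, so this is a description only.

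The fall with the lowest adjusted p (6.89e-09 in limma) was also even between cows. This gene, the fourth largest fall, was at 76.9, 85.8 and 73.5 normalized counts at 12 h in cows 2, 3 and 4, at 33.9, 34.1 and 27.0 at 24 h, and at 2.04, 3.09 and 2.30 at 72 h. At 0 h it was at 2.41, 2.11 and 4.63. Its change of -4.75 ± 0.25 on the log2 scale (SE, n = 3 cows) was -4.93, -4.58 and -4.73 in the single cows.

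The falls differed in how much of them had taken place by 24 h. The eighth largest went from 179, 272 and 212 at 12 h to 45.9, 33.7 and 49.6 at 24 h and 13.0, 20.6 and 15.1 at 72 h, so that most of its drop lay in the first interval in each cow. The twelfth largest was at 478 ± 12.2 at 12 h and 476 ± 143 at 24 h, and at 48.2 ± 30.6 at 72 h (mean ± SD, n = 3), but at 24 h it was 389, 641 and 397 in cows 2, 3 and 4, lower than at 12 h in cows 2 and 4 and higher in cow 3. In cow 1 it went from 472 at 12 h to 297 at 24 h. It lost its call in 1 alternative, without cow 2 (adjusted p = 0.0529 in limma). The seventh largest was at 482, 520 and 902 at 12 h and at 346, 443 and 823 at 24 h, and reached 22.8, 24.6 and 80.5 at 72 h. In cows 2, 3 and 4 it kept most of its 12 h level at 24 h, whereas in cow 1 it went from 491 at 12 h to 161 at 24 h. The difference between these schedules was not tested.

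Among the rises, the fifth largest was the most precise. It was at 10.1, 10.1 and 8.62 normalized counts at 12 h in cows 2, 3 and 4, at 24.0, 26.0 and 28.9 at 24 h, and at 52.6, 68.2 and 42.4 at 72 h, beside 56.4, 51.1 and 52.1 at 0 h. Its change was 2.42 ± 0.18 on the log2 scale (SE, limma adjusted p = 3.33e-07). The fourth largest rise was the least even, at 0.881, 1.03 and 0.401 at 12 h and 2.85, 5.72 and 14.2 at 72 h, a change of 1.28, 2.03 and 4.03 in the single cows. It lost its call without cow 3 (adjusted p = 0.0664 in limma) and without cow 4 (adjusted p = 0.146).

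Calls were most frequent among genes of middle to high abundance. Of the 313 genes with a mean of 100 to 1000 normalized counts, 22 rose and 50 fell, which is 23.0%. The share was 10.3% for means of 10 to 100 (105 rose and 160 fell of 2572) and 0.666% for means under 1 (13 and 27 of 6007). Of the 37 genes at 1000 or more, 1 rose and 1 fell. The median SE was 0.17 on the log2 scale between 100 and 1000 and 0.48 between 1 and 4, where 1.29% were called. A change of a given size was therefore easier to call in the former class. The median SE was 0.29 for means under 1 and 0.30 at 1000 or more, so it did not follow the share called in every class.

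None of the 20 most abundant genes was called by limma, whereas DESeq2 called 4, edgeR 3 and limma-voom 1. Over all genes, limma called 490 of 13525 tested, edgeR 835 of 7019 and limma-voom 668 of 7518. DESeq2 called 688 of 13525 genes entered, but its default filter can leave genes with low counts out of the adjustment. The few calls among the 20 were not tested against these shares. The most abundant gene of all was at 259535, 262659 and 293087 normalized counts at 12 h in cows 2, 3 and 4 and at 266691, 208958 and 203301 at 72 h, and the groups overlapped. Its change of -0.27 ± 0.90 on the log2 scale (SE, limma adjusted p = 0.968) carried a wide error, while the differences in the single cows were 0.04, -0.33 and -0.53. The limma fit sets this SE partly from other genes of like abundance, so it is not the spread of this gene alone. This gene and the second most abundant together took 47.2% to 52.0% of the reads in the 6 libraries. Of the 20, 19 had a difference below 0 with the authors' scaling and 16 with CPM.

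The exception in direction was the fifth most abundant gene. It was at 24644, 15743 and 22735 normalized counts at 12 h and at 36270, 38601 and 33080 at 72 h, with no overlap. Its difference of 0.80 ± 0.42 on the log2 scale did not pass in limma (adjusted p = 0.438), but passed in edgeR (adjusted p = 0.00454), DESeq2 (adjusted p = 5.83e-04) and limma-voom (adjusted p = 0.0287). At 24 h it was at 27368, 12327 and 16245 and at 0 h at 45224, 34984 and 53965. In cow 1 it was at 71146 at 0 h, 23280 at 12 h and 13960 at 24 h, so that all 4 cows were lower at 12 h and 24 h than at 0 h.

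Of the 2 identifiers printed in the study's text, neither passed the test. ENSBTAG00000047609 was at 92.3, 66.9 and 27.3 normalized counts at 12 h and at 128, 185 and 44.1 at 72 h in cows 2, 3 and 4. It was higher at 72 h in each cow, but the cows differed more than the times, and the values overlapped. Its difference was 0.87 ± 0.52 on the log2 scale (SE, limma adjusted p = 0.511), and it passed in 4 of 18 alternatives, among them edgeR (adjusted p = 0.00103) and limma with cow as a fixed term (adjusted p = 0.00425). ENSBTAG00000047136 was at 216, 220 and 205 at 12 h and at 185, 184 and 187 at 72 h, with no overlap. Its difference of -0.20 ± 0.14 (limma adjusted p = 0.593) passed in none of the 18, and its sign turned under quantile normalization and under CPM.

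The direction of the calls was checked in a cow that the test did not use. With cow 2 left out, 199 genes were called in the remaining cows, and 195 of them (98.0%) differed in the same direction in cow 2. With cow 3 left out, 178 of 180 (98.9%) did so in cow 3, and with cow 4 left out, 208 of 218 (95.4%) in cow 4. Of all genes tested, between 36.0% and 44.9% were higher at 72 h in the cow left out and between 39.2% and 46.2% were lower. The median size of the change was 1.73, 1.78 and 1.75 on the log2 scale in the remaining cows and 1.40, 1.69 and 1.57 in cows 2, 3 and 4.

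The 0 h and 24 h libraries of cows 2 to 4 were not used to form the 72 h to 12 h difference, although they entered the estimate of its error. Among the 192 genes that rose from 12 h to 72 h, 170 (88.5%) were lower at 24 h than at 0 h, beside 49.1% of all genes tested. Among the 298 that fell, 275 (92.3%) were higher at 24 h than at 0 h, beside 48.0% of all. The shares over the 2922 genes with a mean of at least 10 were 43.6% and 56.4%. The median difference of 24 h minus 0 h was -0.49 on the log2 scale for the risers and 0.84 for the fallers. Most genes that fell after 12 h thus stood above, and most that rose stood below, their 0 h level at 24 h.

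Fewer of them passed the test at 24 h against 0 h. Of the 298 fallers, 112 (37.6%) were called higher at 24 h than at 0 h, beside 1.53% of all genes tested, and 0 were called lower. Of the 192 risers, 40 (20.8%) were called lower, beside 0.776% of all, and 0 were called higher. Over the 2922 genes with a mean of at least 10, 5.61% were called higher and 2.19% lower at 24 h. Genes with a small error are called more readily in every contrast of the model, and the median SE was 0.25 on the log2 scale for the called genes and 0.32 for all genes tested. These shares were not tested against the background.

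**Figure D4:**
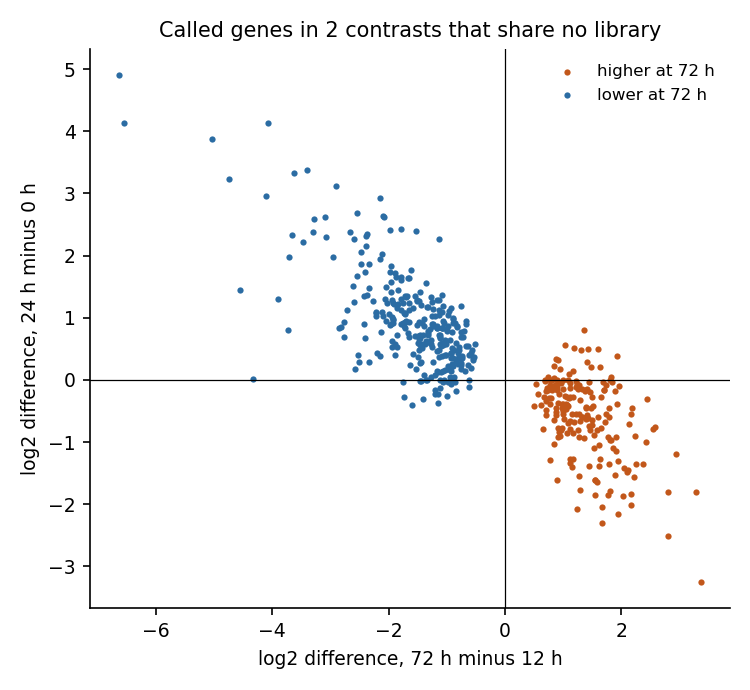
Each point is a gene called between 12 h and 72 h; the x axis is its log2 difference 72 h minus 12 h and the y axis its log2 difference 24 h minus 0 h, from libraries that the x axis does not use. Of the 298 genes lower at 72 h (blue), 275 lie above 0 on the y axis, and of the 192 higher at 72 h (orange), 170 lie below it.

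The 0 h level lay nearer to 72 h than to 12 h for 162 of the 192 genes that rose and for 277 of the 298 that fell. The same held for 7336 of the 13525 genes tested and for 1865 of the 2922 with a mean of at least 10. The 12 h and 72 h values of these cows chose the genes, so of the medians that follow only those at 24 h do not use them. The 0 h and 24 h libraries still entered the estimate of error behind the calls. For the risers the median log2 difference from 0 h was -1.18 at 12 h, -0.49 at 24 h and 0.14 at 72 h. For the fallers it was 1.23 at 12 h, 0.84 at 24 h and -0.13 at 72 h. These medians cover genes on both sides of 0 h. At 72 h, 127 of the 192 risers and 198 of the 298 fallers had passed their 0 h level, beside 7804 of all 13525 genes and 1814 of the 2922 with a mean of at least 10. These shares were near the background, and the choice of genes favours values beyond 0 h. The 24 h level was nearer to 12 h than to 72 h for 212 of the 298 fallers and 110 of the 192 risers, beside 6865 of all 13525 genes and 1662 of the 2922, so the risers' share was near the background. At 24 h, 51 of the fallers and 17 of the risers stood beyond their 12 h level, beside 4161 of all genes and 1109 of the 2922.

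None of the libraries of cow 1, which may be the cow that fell ill, was in the test. Between 0 h and 12 h, 179 of the 192 risers (93.2%) were lower at 12 h in cow 1, beside 41.0% of all genes tested. Of the 298 fallers, 282 (94.6%) were higher at 12 h, beside 40.5% of all. Over the 2922 genes with a mean of at least 10, 45.1% were lower and 54.9% higher at 12 h in cow 1. The median log2 difference of 12 h minus 0 h in this cow was -1.23 for the risers and 1.12 for the fallers. All 12 of the largest falls were higher at 12 h than at 0 h in cow 1, and none of the 12 largest rises was.

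As a share of the library, the called genes were a small part of the RNA. The 298 fallers summed to 2.38%, 2.79% and 2.54% of the normalized counts at 12 h in cows 2, 3 and 4, and to 0.965%, 1.16% and 1.21% at 72 h. They held 1.03%, 1.07% and 1.07% at 0 h and 2.04%, 2.22% and 2.09% at 24 h, so the sum at 24 h was nearer to its 12 h than to its 0 h value in each cow. The 192 risers summed to 0.617%, 0.540% and 0.542% at 12 h and to 1.47%, 1.86% and 1.69% at 72 h. At 0 h they held 1.28%, 1.40% and 1.21%, and at 24 h 0.869%, 0.834% and 0.756%, between the sums at 12 h and 72 h. In cow 1 the fallers held 0.902%, 2.60% and 2.29% and the risers 1.09%, 0.525% and 0.783% at 0, 12 and 24 h.

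**Figure D5:**
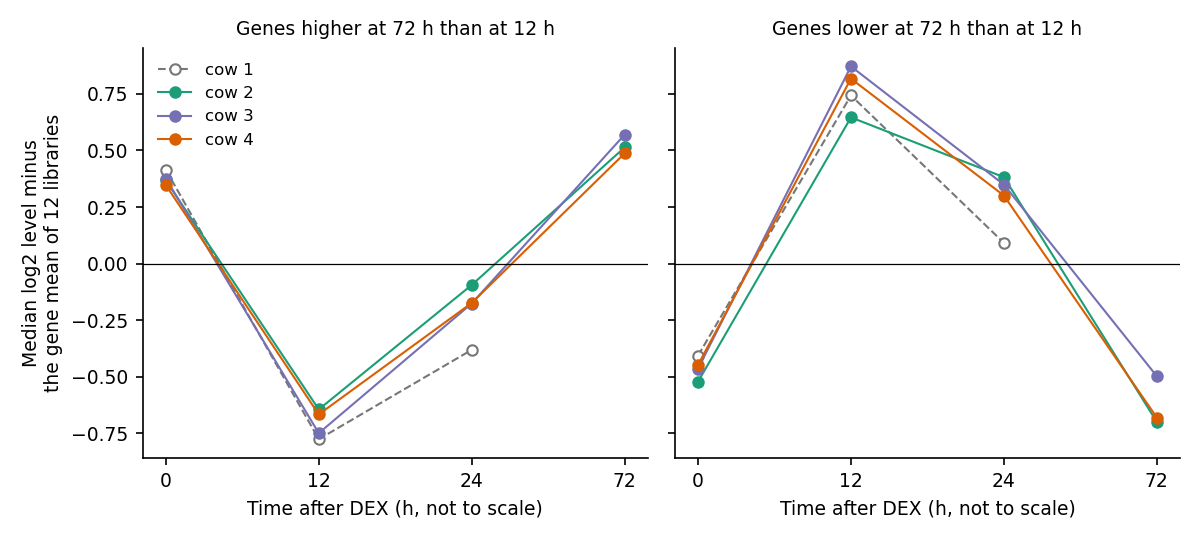
Median over the called genes of the log2 level minus the gene's mean over the 12 libraries of cows 2 to 4, by time after DEX (h, not to scale), for genes higher at 72 h than at 12 h (left) and lower (right); each line is a cow and the dashed line with open points is cow 1. The 12 h and 72 h points of cows 2 to 4 chose the genes and enter the gene means, so the 24 h points depend on that choice too. At 24 h the risers sit at -0.09 to -0.18 and the fallers at 0.30 to 0.38 in cows 2 to 4, and at -0.38 and 0.09 in cow 1.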

How the data were processed

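The authors trimmed reads with HTStream, aligned them with STAR (2.6.0c) to the cattle assembly UMD3.1, counted them per Ensembl gene and deposited normalized counts, a signal equal to CPM divided by a factor for each library. The scaling method is not given in the sources used here. Whole reads were recovered for 100% of values (tolerance 0.01 reads), from 1804120 to 6228132 reads per library. Of 24616 identifiers, 13525 had a read in cows 2 to 4 and were tested.

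Cows 2 to 4 gave 12 libraries, whose values were put on a log2 scale after 0.5 was added and fitted with limma (3.58.1, R 4.3.3), using lmFit and a trended eBayes. Time point was the factor, with the within-cow correlation from duplicateCorrelation (0.0179), and Benjamini-Hochberg adjustment ran over all genes at 0.05. Fold changes on this scale are too small for genes with low values. Single-cow log2 differences use the same pseudocount. The libraries of 1 cow come from 1 animal, so the cow number pairs them. Deviations from the time point means correlated between 12 h and 72 h of a cow (0.383, 0.446 and 0.357, across 2922 genes). At a correlation of 0.0179 the main model made little use of this pairing. A fit with no term for cow called 474 genes, and all 474 were among the 490 of the main model. None of the 6 pairs of libraries compared (cows 2 to 4 within 12 h and within 72 h) was near-identical. The script was tested on simulated data with known changes. Alternatives used edgeR (4.0.16), DESeq2 (1.42.0) and limma-voom on the recovered reads, other pseudocounts, scalings, filters and models, and each cow left out.

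The genes described individually are the 12 largest rises and 12 largest falls among called genes whose mean normalized count was 4 or more, with 1 direction in all 3 cows, of which 2 identifiers a direction are printed, the 2 identifiers in the study's text, and the 20 most abundant genes, which were chosen after the data were seen. Lists and markers set by gene symbol were not used here, since 0 identifiers matched a symbol (assembly ARS-UCD2.0). The comparison and lists were chosen with earlier results of these data known.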

Additional observations from a re-analysis of the deposited data

Results flagged for a closer look

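Among 27 groups of 4 libraries examined, 3 held a library far from the other 3, and chance alone flags about 1 group in 20. All 3 were at 0 h, outside the 72 h to 12 h difference. The 72 h libraries, 3 in number, gave no group of 4 and were not examined in this way. ENSBTAG00000009870 was at 0.301 normalized counts in cow 3, from 1 read, and at 0 in the other cows. A group with 0 in all but 1 library is flagged whatever that value is, so the chance rate does not hold for it. ENSBTAG00000017328 was at 16.7 in cow 2, against 7.53 to 8.12 in the other cows. The factor by which CPM were divided in the 0 h library of cow 1 was 0.797, against 0.958 to 0.989 in the other cows.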

How the results depend on the processing

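The counts were recomputed under 15 alternatives set in advance and 3 added after the data were seen (CPM without the authors' factors, totals without the 20 most abundant genes, and a constant prior variance). In the main model 490 genes were called, 192 higher and 298 lower at 72 h. edgeR called 835, with 391 higher. Genes higher at 72 h also numbered 306 with DESeq2, 305 with limma-voom and 292 with the pairwise fit that has the replicate block (cow) as a fixed term. Cow as a fixed term in the fit of 12 libraries gave 658 genes and no replicate block gave 474. CPM gave 335 higher and 188 lower. Without 1 cow, 180 to 218 genes were called, 49 to 77 higher and 131 to 141 lower, from fewer libraries. The block changed none of the calls of the 24 largest changes. Of 426 recomputed values for these 24 genes, 419 stayed past the test in the same direction, 7 (5 genes, each with 1 cow left out) lost the call and 0 reversed. ENSBTAG00000047136, at -0.20 on the log2 scale in the main model, was at 0.034 under quantile normalization and 0.027 with CPM. The third most abundant gene, at -0.16, was at 0.23 and 0.069. Where the cause of a change is not named, the cause was not tested. Depth limits genes under 1.22 normalized counts, the level of 3 reads in the shallowest of the 6 libraries.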
